A study of Mus musculus with 6 samples.

Results

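Protein synthesis needs enzymes that charge transfer RNAs with amino acids, initiation factors that bring the first charged transfer RNA and the ribosome to a start codon, and elongation factors that move the ribosome along the message. The report concerns mouse genes of these kinds, taken as every gene with its own probe set whose symbol in the platform annotation starts with Eif and a digit from 1 to 6 or with Eef and a digit 1 or 2, or is a tRNA synthetase symbol of the form Aars, Aars1 or Aars2. The rule uses names only, and it found 70 of the 8251 genes on the array, covered by 92 of 10833 single-gene probe sets. It also takes in kinases, binding proteins and a methyltransferase that act on translation factors (Eif2ak1, Eif4ebp1, Eef2k and Eef1akmt1, for example), and it leaves out synthetase subunits with other symbols such as Farsa and Eprs.

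The tibialis anterior, a fast muscle of the shin, was taken from mice 48 h after 50 eccentric contractions (the muscle is stretched while it pulls) or 50 isometric ones (it pulls at a fixed length). The control tissue came from contralateral legs stimulated only to measure isometric torque, and whether those animals had been given eccentric or isometric contractions is not stated in the labels. Strain, sex and age are not given there either. Total RNA of 4 animals was pooled for each of the 3 groups, and each pool was put on 2 Affymetrix arrays, A and B. A group is therefore 1 biological sample: no p-value for a type of contraction was computed, and every SD below is over n = 2 arrays of 1 pool and covers labelling and hybridisation, not animals.

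Values are linear signals, with a floor at 120.8 below which signals were treated as equal. A gene counted as measured between a pair of pools when both arrays of at least 1 of them read above that floor. To be called, its mean log2 signal had to differ by 1 or more (2-fold) between the pools, with the same sign in all 4 pairings of their arrays. A second size, 1.5-fold with the same sign rule, is given beside it. Because arrays were scaled to a common mean, a shift in most transcripts at once is invisible here. In a whole muscle, fewer cells of a type and less RNA per cell cannot be told apart.

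All 10 markers of skeletal muscle fibres, creatine kinase Ckm and fast myosin Myh4 among them, lay above the floor on all 6 arrays, in keeping with the labelled tissue. Their summed signals were 250300 and 241980 on the eccentric arrays, 237923 and 341271 on the isometric arrays and 340954 and 272572 on the control arrays, highest on isometric B and control A. The 12 macrophage markers summed to 29068 and 29319 on the eccentric arrays, 16143 and 16501 on the isometric arrays and 10169 and 10259 on the control arrays. Of the 10 that were measured, 9 were called higher in the eccentric pool than in the control pool, beside 5.16% of all genes. For isometric against control 2 were, beside 0.915% of all genes. Itgam and Fcgr3 lay above the floor on 1 array each. For beta-actin, the log2 ratio of its 3' probe set to its 5' probe set, which rises when RNA is degraded, was 0.44 in the eccentric, 0.21 in the isometric and 0.04 in the control pool. The same ratio for Gapdh was 0.12 in the eccentric, 0.10 in the isometric and -0.06 in the control pool. Its isometric mean covers -0.07 on array A, level with the control arrays (-0.05 and -0.07), and 0.27 on array B, so the pools are not ordered by it. The part of these shifts in the members' values was not tested.

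Most genes of the translation machinery differed little between the pools. Against the control pool, 2 of 61 measured members were called higher in the eccentric pool, Eef1a1 and Eif1a, and 0 were called lower. Of all 5682 genes measured in that comparison, 5.16% were called higher and 1.06% lower. At 1.5-fold 5 members were higher (Eef1a1, Eif1a, Vars, Eif3d and Cars) and 2 were lower (Eif1ax and Eif2d), and 54 were neither, beside 12.2% higher and 7.25% lower among all genes. The members' shares, 8.2% higher and 3.28% lower, were no larger than these backgrounds. Their median log2 difference was -0.06, with a range from -0.87 to 1.12, beside -0.02 for all genes.

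The other comparisons gave fewer differences still. In the isometric against the control pool 0 of 61 measured members were called in either direction, where 0.915% of 5574 genes were called higher and 0.323% lower. At 1.5-fold the count was also 0, beside 3.89% higher and 2.31% lower among all genes, and the members' median was -0.04 (-0.01 for all genes). In the eccentric against the isometric pool 0 of 60 were called, beside 1.73% higher and 0.676% lower among 5622 genes. At 1.5-fold, Eef1a1 and Nars were higher and Eif2d was lower, beside 7.7% and 4.94%, and the median was 0.00 (0.02 for all genes). The SD of the log2 difference between arrays A and B over the members was 0.25 in the eccentric, 0.34 in the isometric and 0.43 in the control pool.

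**Figure D1:**
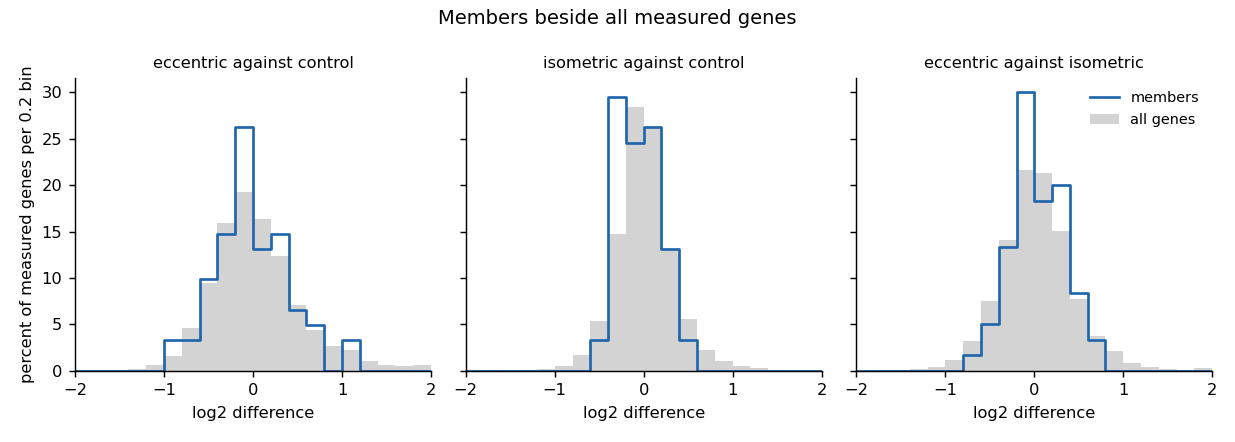
Share of measured genes (percent, y axis) by log2 difference in bins of 0.2 (x axis, values beyond the axis in the end bins) for all genes (grey bars) and the members (blue line) in the 3 comparisons. The members' medians were -0.06, -0.04 and 0.00, their largest single excess was in the bin from -0.4 in the isometric against the control pool (29.5% of members beside 14.7% of all genes), and no member lay below -0.87 or above 1.12.

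Both copies of an elongation factor differed in opposite directions in the eccentric pool, and 1 of them passed the rule. Elongation factor eEF1A carries charged transfer RNAs to the ribosome, and mice have a copy made in most cells, Eef1a1, and one made mainly in adult muscle fibres, heart and neurons, Eef1a2. Eef1a1 had signals of 13936 and 12634 on the eccentric arrays, 7768 and 8741 on the isometric arrays and 6408 and 6867 on the control arrays. Both eccentric arrays lay above all others, and the isometric arrays lay above both control arrays by a smaller step. The means were 13285 ± 921 in the eccentric pool, 8254 ± 688 in the isometric pool and 6637 ± 325 in the control pool. The log2 difference was 1.0 for the eccentric against the control pool (2.0-fold, at the threshold itself, with 0.88 to 1.12 over the pairings), 0.31 for the isometric against the control pool and 0.69 for the eccentric against the isometric pool. Without control A or without eccentric A it was 0.95 or 0.93 and no longer reached 2-fold.

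Eef1a2 ran the other way without being called. Its signals were 19330 and 18837 on the eccentric arrays, 20557 and 25818 on the isometric arrays and 29315 and 22768 on the control arrays. Both eccentric arrays lay below both control arrays, while the isometric arrays overlapped the control arrays. The log2 differences were -0.44 for the eccentric against the control pool, -0.17 for the isometric against the control pool and -0.27 for the eccentric against the isometric pool. The high values on control A and isometric B are on the arrays where the summed fibre markers were also highest. So were the summed red blood cell markers, at 59211 on control A and 54143 on isometric B, so the pattern is not particular to fibre genes. Arrays A and B of a pool carry the same RNA, and the reason for their difference was not tested.

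Probe sets have no common scale, so the levels of both genes cannot be set against each other, but their ratio can be followed from array to array. Relative to the control mean, the log2 ratio of Eef1a2 to Eef1a1 was -1.49 and -1.39 on the eccentric arrays, -0.56 and -0.40 on the isometric arrays and 0.23 and -0.23 on the control arrays. The 3 pools did not overlap in this ratio. It differed by -1.44 between the eccentric and the control pool (-1.72 to -1.15 over the pairings), a 2.71-fold shift toward Eef1a1. It differed by -0.48 between the isometric and the control pool (-0.79 to -0.17) and by -0.96 between the eccentric and the isometric pool (-1.09 to -0.83). Without control A and isometric B these values were -1.21, -0.33 and -0.88. Without control A alone the isometric difference from control was -0.25. Against the control pool the macrophage markers had a median log2 difference of 1.55 for the eccentric and 0.56 for the isometric pool, and the fibre markers one of -0.28 for the eccentric and -0.10 for the isometric pool, and their part in the ratio was not tested.

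**Figure D2:**
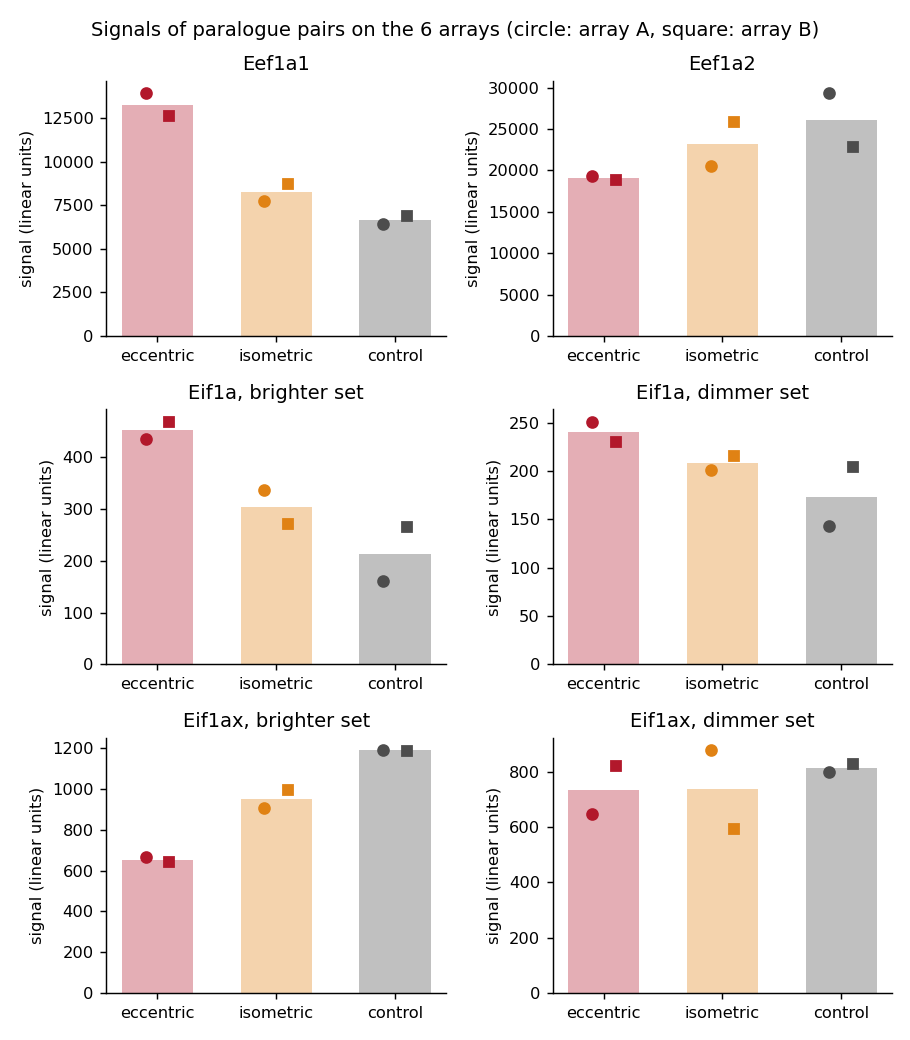
Signal (linear units, y axis from 0) of Eef1a1, Eef1a2 and both probe sets of Eif1a and of Eif1ax in the eccentric, isometric and control pools; bars are means over the 2 arrays and points are arrays A (circle) and B (square). Eef1a1 and Eif1a are highest on the eccentric arrays, Eef1a2 and the brighter Eif1ax set lowest there, and the dimmer Eif1ax set shows overlapping pools. Scales differ between panels and levels cannot be compared between them.

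The start regions of this pair are shown so that its widely expressed and its muscle copy can be set side by side. They are RefSeq sequences of build GRCm38.p6, from 250 bases before to 50 after the annotated start, 5′ to 3′ on the gene's strand, at chr9:78481675-78481974 (minus strand) for Eef1a1 and chr2:181156966-181157265 (minus strand) for Eef1a2. Capitals mark the core of a GC box (GGGCGG on either strand), the letters TATATAA, and an E-box, whose letters are CAGCTG.
Eef1a1: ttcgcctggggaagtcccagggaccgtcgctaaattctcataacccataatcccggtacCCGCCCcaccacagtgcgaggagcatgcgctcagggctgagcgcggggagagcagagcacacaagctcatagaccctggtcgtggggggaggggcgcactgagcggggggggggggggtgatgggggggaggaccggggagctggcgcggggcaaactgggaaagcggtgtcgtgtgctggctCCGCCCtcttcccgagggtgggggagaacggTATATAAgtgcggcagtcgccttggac
Eef1a2: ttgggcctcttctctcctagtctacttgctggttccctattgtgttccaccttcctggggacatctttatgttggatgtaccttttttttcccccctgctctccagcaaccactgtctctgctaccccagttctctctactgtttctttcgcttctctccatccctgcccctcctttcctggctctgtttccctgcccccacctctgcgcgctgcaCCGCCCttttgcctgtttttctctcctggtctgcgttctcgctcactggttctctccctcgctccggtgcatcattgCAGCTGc

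The windows differ in composition, with 66.7% G and C in Eef1a1 and 55.0% in Eef1a2. Eef1a1 has 2 GC-box matches and a TATATAA that starts at position 24 after the annotated start, whereas Eef1a2 has 1 GC-box match and a CAGCTG at position 44 after its start. On either strand, GGGCGG occurs in 35.7%, CAGCTG in 16.3% and TATATAA in 3.24% of the 32851 start regions in the table. A match describes the letters of a window and is no evidence of binding.

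Other elongation genes had the following values. Eef2, the factor that moves the ribosome by 1 codon, had 7046 ± 178 in the eccentric, 5918 ± 787 in the isometric and 6086 ± 699 in the control pool, with log2 differences from control of 0.22 for the eccentric and -0.04 for the isometric pool. Eef1d, a subunit of the complex that recharges eEF1A with GTP, had 1413 ± 80.6 in the eccentric, 1677 ± 295 in the isometric and 1656 ± 142 in the control pool. The methyltransferase Eef1akmt1, which acts on eEF1A, had 431 ± 27.9 in the eccentric, 461 ± 20.9 in the isometric and 559 ± 65.8 in the control pool, a log2 difference of -0.37 for the eccentric and -0.27 for the isometric pool. None of these passed 1.5-fold. The other exchange-complex subunits Eef1b2 and Eef1g, and Eef2k, the kinase that inhibits eEF2, did not lie above the floor on both arrays of any pool. Eif5a, which helps ribosomes through difficult stretches of peptide bonds, had 86.8 ± 7.92 for the eccentric and 83.8 ± 5.31 for the isometric pool, both below the floor, and 131 ± 2.68 for the control pool, just above it, so no fold is given.

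Among factors that find the start codon, the 2 genes of eIF1A moved apart on their brighter probe sets, and less so on the dimmer ones. The protein eIF1A sits in the ribosome's decoding site during scanning and is encoded by Eif1a and its X-linked paralogue Eif1ax. Eif1a had 436 and 469 on the eccentric arrays, 337 and 271 on the isometric arrays and 162 and 266 on the control arrays. Its mean was 452 ± 23.5 in the eccentric, 304 ± 46.5 in the isometric and 214 ± 73.6 in the control pool. Both eccentric arrays lay above the others, and the 2.18-fold difference from control (log2 1.12, 0.71 to 1.53 over the pairings) passed the rule. Control A was low, and without it the log2 difference was 0.76. The isometric arrays lay just above control B, at a log2 difference of 0.54 with 0.03 as the lowest pairing. Its second, dimmer probe set had 241 ± 14.7 in the eccentric, 208 ± 10.5 in the isometric and 174 ± 42.9 in the control pool, a log2 difference of 0.49 for the eccentric and 0.28 for the isometric pool, and passed neither size.

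Eif1ax had 665 and 640 on the eccentric arrays, 905 and 996 on the isometric arrays and 1190 and 1187 on the control arrays. The 3 pools did not overlap, and the eccentric pool was the lowest, with a log2 difference from control of -0.87 (-0.90 to -0.84) that passed 1.5-fold. The isometric pool lay between, at -0.32 from control. A second probe set of Eif1ax did not show this, with 649 and 822 on the eccentric arrays, 878 and 594 on the isometric arrays and 798 and 829 on the control arrays, and a log2 difference of -0.16 between the eccentric and the control pool. Which of the sets tracks the message could not be told from these files. The ratio of the brighter sets of Eif1ax to Eif1a differed by -1.99 between the eccentric and the control pool (-2.43 to -1.55). Between the isometric and the control pool it differed by -0.86 (-1.45 to -0.28). The dimmer sets moved apart much less, with eccentric log2 differences from control of -0.16 (Eif1ax) and 0.49 (Eif1a), and neither passed 1.5-fold. The size of the shift in the ratio therefore depends on the probe sets used.

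Eif1b, Eif5 and Eif5b, which act in start-codon recognition and in joining the ribosomal subunits, differed little. The log2 difference of Eif1b from control was 0.22 (eccentric) and -0.11 (isometric), that of Eif5 was -0.10 (eccentric) and -0.24 (isometric), and that of Eif5b 0.14 (eccentric) and -0.31 (isometric). For all 3 genes the pairings of arrays changed sign in the eccentric against the control pool.

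The factor eIF2 delivers the initiator transfer RNA, and eIF2B, an exchange factor, reloads it with GTP. Of the 7 members in this group 0 passed 1.5-fold in the eccentric or isometric against the control pool. Of all genes, 12.2% were higher and 7.25% lower in the first comparison, and 3.89% and 2.31% in the second. The 7 genes are too few to set a count of 0 apart from those shares. Eif2b5, the catalytic subunit of eIF2B, had 900.5 ± 54.2 in the eccentric, 747 ± 116 in the isometric and 662 ± 32.9 in the control pool, a log2 difference of 0.44 for the eccentric pool, while its dimmer probe set had one of 0.09. The X-linked eIF2 gamma gene Eif2s3x had 2720 ± 17.2 in the eccentric, 2928 ± 290 in the isometric and 2934 ± 278 in the control pool. Its Y-linked copy Eif2s3y had 331 ± 11.3 in the eccentric, 327 ± 51.1 in the isometric and 426 ± 43.1 in the control pool. The probe set of Eif2s3y can also bind related transcripts. The widest spread was that of Eif2s2, eIF2 beta, with 774 and 692 on the eccentric arrays against 744 on control A and 1803 on control B, so that its log2 difference of -0.66 rested on 1 array.

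Eif2d, a factor that can bring transfer RNA to the ribosome without GTP, was lower in the eccentric pool. Its signals were 405 and 506 on the eccentric arrays, 740 and 772 on the isometric arrays and 902 and 721 on the control arrays. The eccentric arrays lay below all others, and the isometric arrays overlapped the control arrays. The log2 difference was -0.83 for the eccentric against the control pool (-1.16 to -0.51), -0.09 for the isometric against the control pool and -0.74 for the eccentric against the isometric pool. The first and the last of these passed 1.5-fold, and the last did not without eccentric A (-0.58). The other probe set of Eif2d lay near the floor. Eif2a, another factor of this kind, had 329 ± 27.8 in the eccentric, 382 ± 86.0 in the isometric and 375 ± 55.4 in the control pool.

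The eIF2 kinases stop initiation under stress by phosphorylating eIF2 alpha. Eif2ak1, the heme-regulated kinase, was the only measured member of the 4, with 820 and 319 on the eccentric arrays, 459 and 411 on the isometric arrays and 305 and 396 on the control arrays. Eccentric A was the highest array and eccentric B lay between the control arrays, so the log2 difference of 0.56 rested on 1 array. The kinases Eif2ak2 (PKR), Eif2ak3 (PERK) and Eif2ak4 (GCN2) did not reach the floor on both arrays of any pool.

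The eIF3 complex is the scaffold that holds the small ribosomal subunit ready for the message. The 10 of its genes that the rule found on the array were all measured. Their median log2 difference was -0.04 for the eccentric and -0.12 for the isometric against the control pool. Eif3d, the subunit that can bind the cap of some messages, was the member that passed 1.5-fold (12.2% of all genes were higher by that rule). It had 1563 and 1555 on the eccentric arrays, 1019 and 1334 on the isometric arrays and 1017 and 905 on the control arrays. Its eccentric arrays lay above all others, at a log2 difference of 0.70 from control (0.61 to 0.79), and its isometric arrays just above the control arrays at 0.28. Eif3b, which forms the core with Eif3a, had 2728 ± 140 in the eccentric, 2281 ± 237 in the isometric and 2095 ± 163 in the control pool. Eif3a and Eif3m lay below control in the eccentric pool on every pairing, with log2 differences of -0.36 and -0.41.

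The bright subunits Eif3c, Eif3k and Eif3l were nearly level, with log2 differences between the eccentric and the control pool of -0.02, -0.02 and 0.07. Eif3f had a log2 difference of -0.72, but its eccentric arrays read 71.1 (below the floor) and 186 and its control arrays 456 and 134.

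The eIF4 group recognises the cap of the message and unwinds its leader. Of its 11 members 8 were measured, and 0 passed 1.5-fold in any comparison. In the eccentric against the control pool 12.2% of all genes were higher and 7.25% lower at that size, with smaller shares in the other comparisons. The 8 genes are too few to set a count of 0 apart from those shares. The group's median log2 difference was -0.14 for the eccentric and -0.14 for the isometric against the control pool. Eif4a2, the helicase copy that is abundant in muscle and brain, had 6643 and 5708 on the eccentric arrays, 6600 and 6766 on the isometric arrays and 8134 and 8937 on the control arrays. Both exercised pools lay below both control arrays, at log2 differences of -0.47 for the eccentric and -0.35 for the isometric pool. Its paralogue Eif4a1, on a dimmer probe set, had 798 ± 138 in the eccentric, 633 ± 136 in the isometric and 702 ± 206 in the control pool, with overlapping arrays.

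The binding proteins that hold back the cap-binding factor eIF4E did not move together. Eif4ebp1, a target of the kinase mTORC1 and of the stress factor ATF4, had 1023 and 1012 on the eccentric arrays, 911 and 827 on the isometric arrays and 731 and 880 on the control arrays, a log2 difference of 0.34 for the eccentric and 0.11 for the isometric pool. Eif4ebp2 had 4456 and 5716 on the eccentric arrays, 4825 and 7204 on the isometric arrays and 6839 and 6709 on the control arrays, at log2 differences of -0.42 (eccentric) and -0.20 (isometric). A dimmer probe set of Eif4ebp2 had the opposite sign, 0.68 (eccentric) and 0.74 (isometric), with control arrays at 1009 and 306. The scaffolds Eif4g2 and Eif4g3 had log2 differences of -0.13 and -0.35 in the eccentric pool, and Eif4e itself, Eif4h and Eif4enif1 were not above the floor on both arrays of any pool.

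Eif6, which keeps the ribosomal subunits apart and works in making the large subunit, had one of the tightest differences. It had 1056 and 1103 on the eccentric arrays, 846 and 850 on the isometric arrays and 751 and 776 on the control arrays. The 3 pools did not overlap, at log2 differences from control of 0.50 (0.45 to 0.56) in the eccentric and 0.15 (0.13 to 0.18) in the isometric pool, below 1.5-fold in both.

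**Figure D3:**
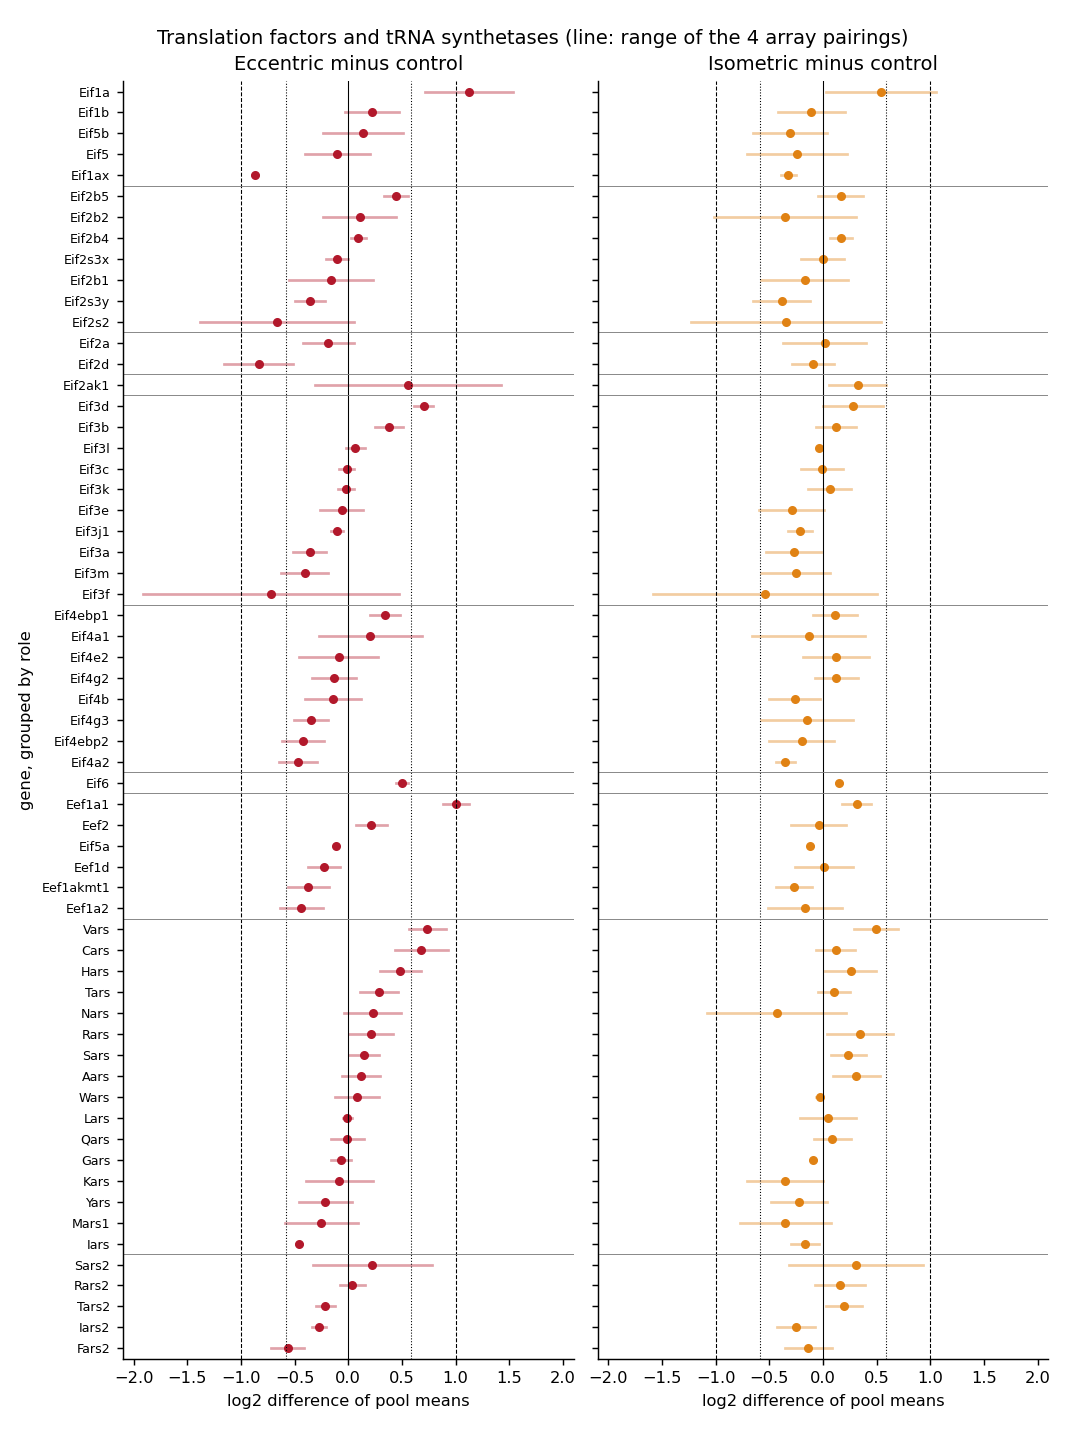
Log2 difference of the eccentric (left, red) and isometric (right, orange) pool from the control pool for the 61 measured members, grouped by role in the order of start-site factors, eIF2 and eIF2B, alternative initiator delivery, eIF2 kinases, eIF3, eIF4, eIF6, elongation, cytosolic and mitochondrial synthetases. Points are differences of pool means, lines the range over the 4 array pairings, dashed lines 2-fold and dotted lines 1.5-fold. Eif1a and Eef1a1 reach 2-fold in the eccentric panel, and no point passes 1.5-fold in the isometric panel.

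The cytosolic tRNA synthetases were measured for 16 amino acids, and 2 of them, Vars and Cars, passed 1.5-fold in the eccentric against the control pool (12.2% of all genes were higher by that rule). The group's median log2 difference was 0.10 for the eccentric and 0.07 for the isometric against the control pool (-0.02 and -0.01 for all genes), with 9 of 16 above 0 in each. Vars, for valine, had 1033 and 909 on the eccentric arrays, 889 and 752 on the isometric arrays and 550 and 616 on the control arrays. Both exercised pools lay above both control arrays, at log2 differences of 0.74 for the eccentric pool (0.56 to 0.91), which passed 1.5-fold, and 0.49 for the isometric pool (0.29 to 0.69), which did not.

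Cars, for cysteine, had 673 and 785 on the eccentric arrays, 478 and 505 on the isometric arrays and 411 and 499 on the control arrays. Both eccentric arrays lay above all others, while the isometric and control arrays overlapped. The log2 difference of 0.68 between the eccentric and the control pool passed 1.5-fold, but not without control A (0.54) or eccentric B (0.57). Hars, for histidine, had 386 and 316 on the eccentric arrays, 340 and 262 on the isometric arrays and 258 and 242 on the control arrays, a log2 difference of 0.48 for the eccentric and 0.26 for the isometric pool.

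Nars, for asparagine, had 733 and 805 on the eccentric arrays, 665 and 355 on the isometric arrays and 573 and 751 on the control arrays. Its 1.5-fold call against the isometric pool rested on the low isometric B, without which the log2 difference was 0.21. At the other end, Iars, for isoleucine, had 1042 and 1011 on the eccentric arrays, 1156 and 1368 on the isometric arrays and 1402 and 1420 on the control arrays. Every eccentric array lay below every other array, at a log2 difference of -0.46 (-0.49 to -0.43) from control, short of 1.5-fold. The other synthetases had log2 differences between -0.25 (Mars1, for methionine) and 0.29 (Tars, for threonine) in the eccentric against the control pool, and between -0.35 (Mars1 and Kars, for lysine) and 0.34 (Rars, for arginine) in the isometric against the control pool.

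The 5 mitochondrial synthetases charge transfer RNAs for the respiratory chain subunits encoded in mitochondria. Their median log2 difference was -0.21 for the eccentric and 0.16 for the isometric against the control pool. At 1.5-fold 0 passed, where 12.2% of all genes were higher and 7.25% lower in the eccentric and 3.89% and 2.31% in the isometric comparison. The 5 genes are too few to set a count of 0 apart from those shares. Fars2, for phenylalanine, had 550 and 500 on the eccentric arrays, 773 and 643 on the isometric arrays and 825 and 730 on the control arrays. Its eccentric arrays lay below all others, at a log2 difference of -0.57 from control (-0.72 to -0.41). Iars2 had 632 and 656 on the eccentric arrays, 721 and 592 on the isometric arrays and 757 and 798 on the control arrays, with both exercised pools below both control arrays. Sars2, for serine, had control arrays at 451 and 851, and its 2 dimmer probe sets had log2 differences of opposite sign to the brightest (-0.25 and -0.38 beside 0.22 in the eccentric pool).

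**Figure D4:**
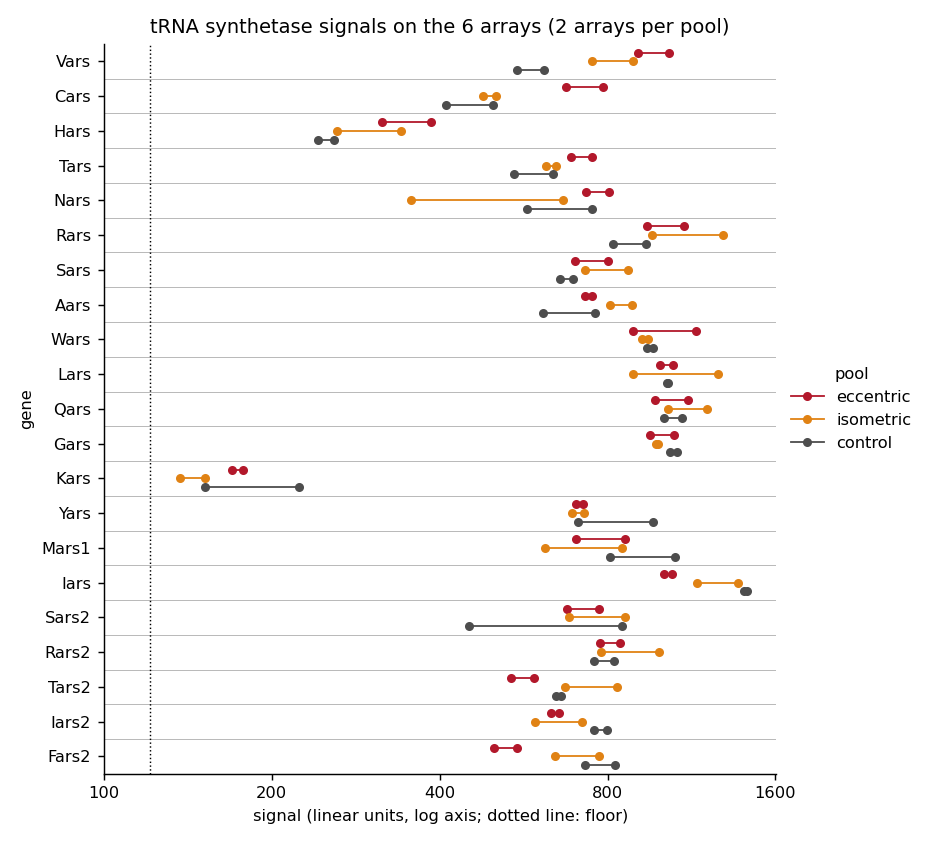
Signal (x axis, linear units on a log axis; the dotted line is the floor of 120.8) of the 16 cytosolic and, below them, 5 mitochondrial tRNA synthetases in the eccentric (red), isometric (orange) and control (grey) pools; points are the 2 arrays of a pool, joined by a line. Vars and Cars lie right of their control arrays in the eccentric pool, Iars and Fars2 left of them, and most other genes overlap.

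Many synthetase genes are known targets of the amino acid response, in which the transcription factor ATF4 binds, with C/EBP partners, to an element whose core can be written TGATGNAA. Of the 70 members, 55 were found in the RefSeq table of start regions (GRCm38.p6), with 70 start regions between them, and 7 of these regions (10%) held the core on either strand, against 3.97% of all 32851. Among the 9 cytosolic synthetases in the table, 5 held it: Aars, Gars, Iars, Tars and Yars. The core was chosen with the sequences seen, so these shares describe the windows and are no test of enrichment. The matches of these 5 genes are printed with 16 bases on each side to show how alike they are, with the core in capitals. It reads as written in Yars and as its reverse complement in the others.
Aars, chr8:111033714-111033753, plus strand: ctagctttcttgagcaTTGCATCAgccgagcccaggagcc
Aars, chr8:111033835-111033874, plus strand: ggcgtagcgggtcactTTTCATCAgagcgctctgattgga
Gars, chr6:55037955-55037994, plus strand: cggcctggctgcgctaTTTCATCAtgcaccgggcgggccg
Iars, chr13:49682121-49682160, plus strand: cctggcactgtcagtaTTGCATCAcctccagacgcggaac
Tars, chr15:11399650-11399689, minus strand: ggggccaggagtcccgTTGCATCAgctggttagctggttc
Yars, chr4:129189890-129189929, plus strand: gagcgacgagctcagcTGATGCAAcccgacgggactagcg

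The matches in Tars and Yars overlap a CAGCTG. The synthetase genes that hold the core lay on both sides of the control pool. Their log2 differences between the eccentric and the control pool were 0.11 for Aars, -0.07 for Gars, -0.46 for Iars, 0.29 for Tars and -0.21 for Yars. Between the isometric and the control pool they were 0.31, -0.10, -0.17, 0.10 and -0.22. None passed 1.5-fold. The other members with the core were Eif2s3x, with log2 differences of -0.11 (eccentric) and 0.00 (isometric), and Eef2k, which was not measured.

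In the wider amino acid response list 2 of 15 measured genes were called higher in the eccentric against the control pool, beside 5.16% of all genes. At 1.5-fold 4 passed as higher and 1 as lower, beside 12.2% and 7.25% of all genes. The 2 called were Psat1 (serine synthesis) at 525 and 548 on the eccentric against 176 and 155 on the control arrays, and Mthfd2 (mitochondrial folate metabolism) at 1787 and 1526 on the eccentric against 378 and 732 on the control arrays. Slc3a2, the heavy chain of amino acid transporters, passed 1.5-fold at 1527 and 1705 on the eccentric against 839 and 985 on the control arrays. Nupr1, a stress-induced nuclear protein, passed it at 234 and 252 on the eccentric against 65.8 and 148 on the control arrays, the first control value below the floor. Phgdh, the first enzyme of the serine pathway to which Psat1 belongs, was the gene that passed it as lower, at 121 and 88.9 on the eccentric against 213 and 206 on the control arrays, the second eccentric value below the floor. Psph, the last enzyme of that pathway, had a log2 difference of -0.34. Atf4 itself had 3576 and 3585 on the eccentric arrays, 2802 and 3082 on the isometric arrays and 3372 and 3571 on the control arrays, and asparagine synthetase Asns had a log2 difference of -0.04 for the eccentric and 0.56 for the isometric pool. The list's median was 0.00 for the eccentric and 0.12 for the isometric against the control pool, with 2 of 14 called higher in the isometric pool, Psat1 (1.07) and Nupr1 (1.02), beside 0.915% of all genes.

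Other translation genes gave few calls. Of 5 synthetase subunits and scaffold proteins outside the symbol rule 0 were called in the eccentric against the control pool. Farsa passed 1.5-fold as higher there, at 438 and 406 on the eccentric against 175 and 318 on the control arrays, and the scaffold protein Aimp2 as lower, at 3273 and 3468 on the eccentric against 5527 and 4705 on the control arrays. Of 9 release, recycling and poly(A)-binding factors, Mknk2, a kinase of eIF4E, passed 1.5-fold at 4713 and 4222 in the eccentric against 3288 and 2588 in the control pool. Of all genes, 12.2% were higher and 7.25% lower at 1.5-fold in that comparison, and 5.16% and 1.06% at 2-fold. Of 8 genes of mTORC1 signalling 0 were called in the eccentric against the control pool. In the eccentric against the isometric pool 1 was called lower, Ddit4, an inhibitor of mTORC1, beside 0.676% of all genes. Ddit4 had 415 and 464 on the eccentric arrays, 886 and 975 on the isometric arrays and 708 and 838 on the control arrays. It also passed 1.5-fold as lower in the eccentric against the control pool, at a log2 difference of -0.81. Of 5 mitochondrial translation factors 0 passed either size in any of the 3 comparisons. At 1.5-fold, 3.89% of all genes were higher and 2.31% lower in the isometric against the control pool. In the eccentric against the isometric pool 7.7% were higher and 4.94% lower. Groups of 5 to 9 genes are too small to set a count of 0 apart from such shares.

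Genes for making ribosomes had a median log2 difference of 0.45 for the eccentric and 0.15 for the isometric against the control pool (-0.02 and -0.01 for all genes). Of 12 measured, 10 lay above 0 in the eccentric pool, and Nop56 and Polr1b lay below it, both at -0.07. At 2-fold 0 were called and 4 passed 1.5-fold as higher, beside 5.16% and 12.2% of all genes. Markers of dividing cells had a median log2 difference of 1.0 for the eccentric pool over 4 measured genes, among them Mcm5 at 1.77, Mcm3 at 1.27 and Mki67 at -0.53. Those of muscle progenitors had one of 0.60 over 4 measured genes, and the part of either in the ribosome genes was not tested. Nucleolin, Ncl, had 3562 and 3499 on the eccentric arrays, 2174 and 2194 on the isometric arrays and 2361 and 2129 on the control arrays. Fibrillarin, Fbl, which methylates ribosomal RNA, had 1124 and 1182 on the eccentric arrays, 740 and 882 on the isometric arrays and 610 and 715 on the control arrays, and the eccentric arrays lay above all others for both genes.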

How the data were processed

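Per the labels, total RNA of 4 animals was pooled for each of 3 groups and each pool was split onto 2 arrays. For each array the authors deposited a linear intensity for 12488 probe sets. Array trimmed means were nearly equal, and how the signals were computed is not given in the sources used. The members and gene lists were chosen with earlier results of these data known, and the motifs with the sequences seen.

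Arrays were scaled to a common trimmed mean (2% removed at each end), values below the 40th percentile of all values were raised to it, and values were turned into log2. The brightest probe set stood for each gene, which applied to 17 members with more than 1. Of their 12 further probe sets that were measured in the eccentric against the control pool, 6 had the opposite sign to the set used. Control probe sets and those of several genes or none stayed out, among them 1 that names Eif4a3 with other genes. All 70 gene IDs were found in the RefSeq gene table. Members named in detail were those past 2-fold or 1.5-fold, the 5 highest and lowest above the floor on all 4 arrays of a comparison, and a preset list, and all others are counted. Not every gene the rule allows is printed.

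Alternatives changed the scaling, floor, filter, probe sets, fold and arrays. limma was run on the 6 arrays over all genes with Benjamini-Hochberg adjustment at 0.05, which compares these pools and not the conditions. Software was limma 3.58.1 (R 4.3.3), numpy 2.4.6, pandas 2.3.3 and matplotlib 3.10.9 (Python 3.11.15). The number of arrays limits the precision of every value.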

Additional observations from a re-analysis of the deposited data

Results flagged for a closer look

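Tars2, the mitochondrial synthetase for threonine, was singled out because all pairings with the control arrays went down for the eccentric pool and up for the isometric pool. Its signals were 591 and 537 (eccentric), 672 and 833 (isometric) and 646 and 661 (control). The log2 differences from control were -0.21 for the eccentric and 0.20 for the isometric pool, so that they differed by -0.41, and the difference was not tested. It was the only one of 61 measured members with that pattern, and both comparisons share the control arrays. The share of all genes with that pattern was not computed, so it cannot be called particular to Tars2.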

How the results depend on the processing

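Each group is 1 pool on 2 arrays, so nothing here bears on variation between animals. In the eccentric against the control pool the count of members called higher was 2 (Eef1a1 and Eif1a) under quantile normalization, a floor at the 20th percentile, no filter and every probe set as its own row. It was 5 at 1.5-fold, beside 12.2% of all genes. Without control A it was 0, with or without isometric B, beside 289 of all 5857 genes called higher. It was 0 to 3 with 1 array left out and 2 by limma (Eef1a1 and Vars). With the array letter as a replicate block it was 1 by limma (Eef1a1). Members called lower were 0, but 1 with the lower floor (Eef2k), beside 185 of all 7149 genes. At 1.5-fold 2 were lower, beside 7.25% of all genes. Without control A and isometric B 2 were lower (Eef1b2 and Eif2s2), beside 80 of all 5857 genes. For both, control B was the high control array, at 306 (Eef1b2) and 1803 (Eif2s2) beside 113 and 744 on control A. With 1 array left out 0 to 2 members were lower. By limma 2 were lower (Eif1ax and Eif2d), and 1 with the replicate block (Eif1ax). Of all 5682 genes, limma called 383 higher and 157 lower, and 259 and 49 with the block. Its unadjusted p was under 0.05 for 9 higher and 5 lower members without the block. How many of all genes lay under that unadjusted cut was not computed, so these counts have no background.

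In the isometric against the control pool 0 members were called higher under all alternatives. Without control A and isometric B 3 of 62 were lower (Eef1b2, Eif2b2 and Eif2s2), beside 55 of all 5910 genes. Each pool then had 1 array, so the sign rule compared 1 pairing. With 1 array left out 0 to 1 members were lower (Eif3f without control B, beside 73 of all 5925 genes). In the eccentric against the isometric pool 2 were higher and 1 lower at 1.5-fold, beside 7.7% and 4.94% of all genes. With the lower floor 1 was lower (Eef2k), beside 127 of all 7032 genes. With 1 array left out 0 to 1 were higher (Nars without isometric A, beside 154 of all 5864 genes). limma called 0 members in both of these comparisons. Without the replicate block it called 0 of all 5574 genes higher and 1 lower in the isometric against the control pool, so 0 members says little there. In the eccentric against the isometric pool it called 67 of 5622 higher and 14 lower. An unadjusted limma p under 0.05, without the block, was reached by 1 higher and 0 lower members in the isometric against the control pool. In the eccentric against the isometric pool it was reached by 3 higher and 4 lower members (2 and 3 with the block). The share of all genes under that cut was not computed for these comparisons either. The members' median in the isometric against the control pool was -0.0611 with quantile normalization, -0.0259 without a filter, -0.0943 with every probe set and -0.0264 without control A and isometric B, and -0.043 to -0.0199 with 1 array left out. In the eccentric against the control pool it was -0.0864 to -0.00933 with 1 array left out. The Eef1a2 to Eef1a1 ratio kept its sign throughout, at -1.67 to -1.21 with 1 array left out in the eccentric against the control pool. Arrays of the same letter did not deviate together (r from -0.15 to 0.04 across 4838 genes). For calls lost when arrays were left out, the cause was not tested.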
